A study of Homo sapiens with 6 samples.

Results

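Oxidative phosphorylation (OXPHOS) genes were examined in RNA-seq libraries of U2OS, a human osteosarcoma cell line, 48 h after transfection with siRNA. Members were the rows of the count table whose symbol starts with MT-, NDUF, UQCR, SDHA, SDHB, SDHC, SDHD, ATP5, or COX followed by a digit. This rule took 118 of 15585 rows, of which 13 are encoded in the mitochondrial genome and 105 in the nucleus. The design had 2 groups of 3 libraries, cells given control siRNA (siCTR) and cells given siRNA against LSD1 (siLSD1), the histone demethylase encoded by KDM1A. The labels name no genotype beyond the cell line, no other treatment, and not which LSD1 siRNA was used. They do not say whether the replicates were separate cultures, so p-values measure only the spread between these libraries.

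OXPHOS couples the oxidation of NADH and succinate to ATP synthesis in the inner mitochondrial membrane. Complex I (NADH dehydrogenase) and complex II (succinate dehydrogenase) feed electrons to complex III (the cytochrome bc1 complex), complex IV (cytochrome c oxidase) passes them to oxygen, and complex V (ATP synthase) uses the proton gradient that results. The mitochondrial genome encodes core subunits of complexes I, III, IV and V, while the other subunits, all of complex II and the assembly factors are nuclear genes whose products are imported.

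The knockdown was first checked on its target. Control libraries counted 6140, 6493 and 6573 KDM1A reads, knockdown libraries counted 1110, 1198 and 1246, and the groups did not overlap. Its log2 fold change (siLSD1 over siCTR) was -2.44 ± 0.11 (SE), with an adjusted p of 2.27e-07. This p, like every adjusted p below for which no other method is named, came from the quasi-likelihood test of edgeR, adjusted over all genes tested by the Benjamini-Hochberg method. The libraries held 12513511 to 13561344 counted reads. The cell line was checked against osteoblast-lineage markers. ALPL was counted at 4162 to 5411 reads per library, COL1A1 at 122 to 200, RUNX2, the osteoblast master regulator, at 0 to 4, SPARC and SP7 at 0 to 3, BGLAP at 1 to 12, and COL1A2 was not analysed here. The epithelial keratin KRT8 was counted at 21772 to 29212 reads and KRT18 at 10914 to 16655. U2OS is known to maintain telomeres without telomerase and to keep CDKN2A silent, but TERT and CDKN2A had 71 to 109 and 1841 to 2883 reads. Several markers therefore go against the label, and the libraries are called U2OS here only because the labels do so.

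One control library stood apart in the OXPHOS genes, and each result below rests in part on it. Of the 97 nuclear members that passed the filter on low counts, 76 (78.4%) had their highest level of the 6 libraries in siCTR replicate 2, against 27.2% of all genes tested. No nuclear member had its lowest level there. The median nuclear structural subunit lay 0.34 above its 6-library mean in that library on the log2 scale of CPM, which are counts scaled to a common library size with TMM factors, and between -0.13 and -0.02 from it in the other 5. The tested nuclear structural subunits are short genes, with a median length of 1515 bases as implied by the deposited FPKM values against 3750 bases over all genes tested. The 307 tested genes under 1000 bases of all kinds shared the pattern, with a median deviation of 0.28 in siCTR replicate 2, while the 7421 genes of 3000 bases or more lay at -0.07. Medians and the estimates most affected are therefore also given without this library.

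**Figure D1:**
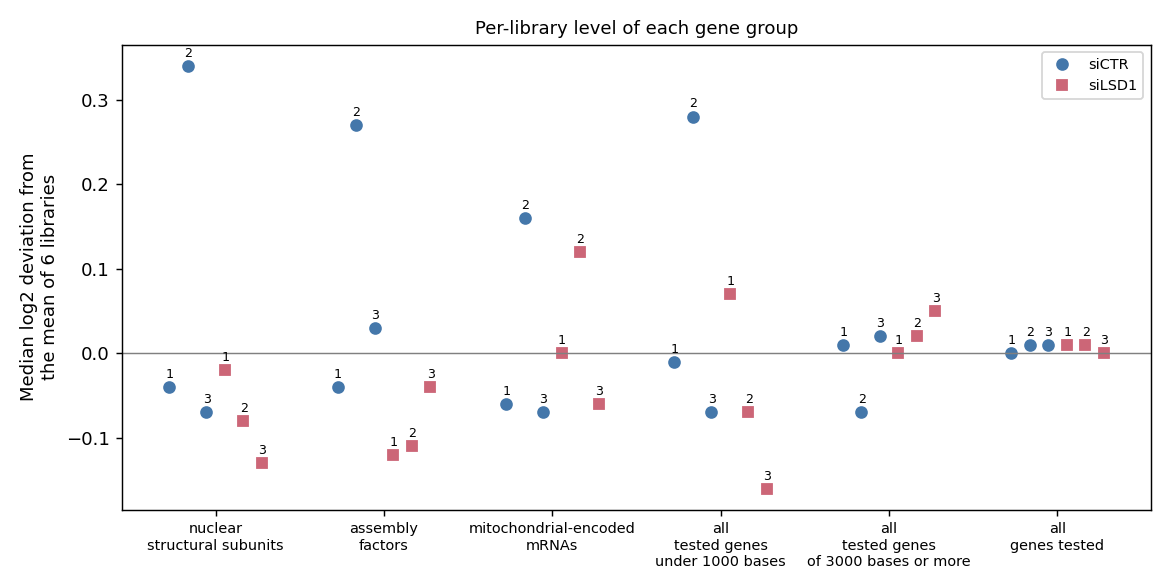
Median log2 deviation of each gene group from its mean over 6 libraries (vertical axis, log2 CPM), by library, with circles for siCTR, squares for siLSD1 and the replicate number beside each point. siCTR replicate 2 lies at 0.34 for nuclear structural subunits and at 0.28 for all tested genes under 1000 bases, and all genes tested lie near 0 in every library.

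No OXPHOS gene passed the test at an adjusted p under 0.05 in either direction. Of the 110 members tested, 0 were called lower against 0.371% of all genes tested, and 0 were called higher against 1.07%. At an unadjusted p under 0.05, 12 members (10.9%) were lower, against a background of 6.55%, and 0 were higher, against 7.48%. The 12 were NDUFB2, NDUFAB1, NDUFS8, NDUFB11, NDUFAF3 and NDUFAF7 of complex I, SDHAF2 of complex II, UQCRQ of complex III, COX6B2 of complex IV, and ATP5MC1, ATP5F1D and ATP5ME of complex V. Without siCTR replicate 2, 4 of 111 members were lower against 5.69% of all genes tested, and 3 higher against 7.0%. Without siLSD1 replicate 2, 7 were lower against 3.79% and 0 higher against 5.07%. The siLSD1 libraries lay entirely below the siCTR libraries for 10 members (9.09%), against 9.97% of all genes tested, and entirely above them for 1 member (0.909%), against 11.4%. These counts treat the libraries as unpaired. With the replicate number as a block in the fit, 7 members (6.36%) were lower at an adjusted p under 0.05, against 3.44%. In that fit 0 were higher, against 4.13%.

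The estimates of the nuclear genes lay mostly below 0 and those of the mitochondrial genes around it. Of 13 mitochondrial-encoded mRNAs, 9 had a log2 fold change above 0 and 4 below, with a median of 0.0488. Without siCTR replicate 2, 11 were above 0 with a median of 0.106, and with a correction for the GC content and length of genes, 12 were above 0 with a median of 0.146. Of 73 nuclear structural subunits tested, 9 were above 0 and 64 below, with a median of -0.157. Of 22 assembly factors, 3 were above 0 and 19 below, with a median of -0.21. The median over all 11844 genes tested was -0.014. The spread between libraries within groups (SD) was 0.17 for the nuclear median and 0.12 for that of the assembly factors. It describes single libraries and is no test of a difference between group means. Both classes lay highest in siCTR replicate 2, with median deviations of 0.34 and 0.27. Without siCTR replicate 2 the nuclear median was -0.0117, with 32 subunits above 0 and 42 below, and the median of the assembly factors was -0.0768. With the GC and length correction these medians were -0.0771 and -0.142. A difference between nuclear and mitochondrial-encoded genes was not tested.

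**Figure D2:**
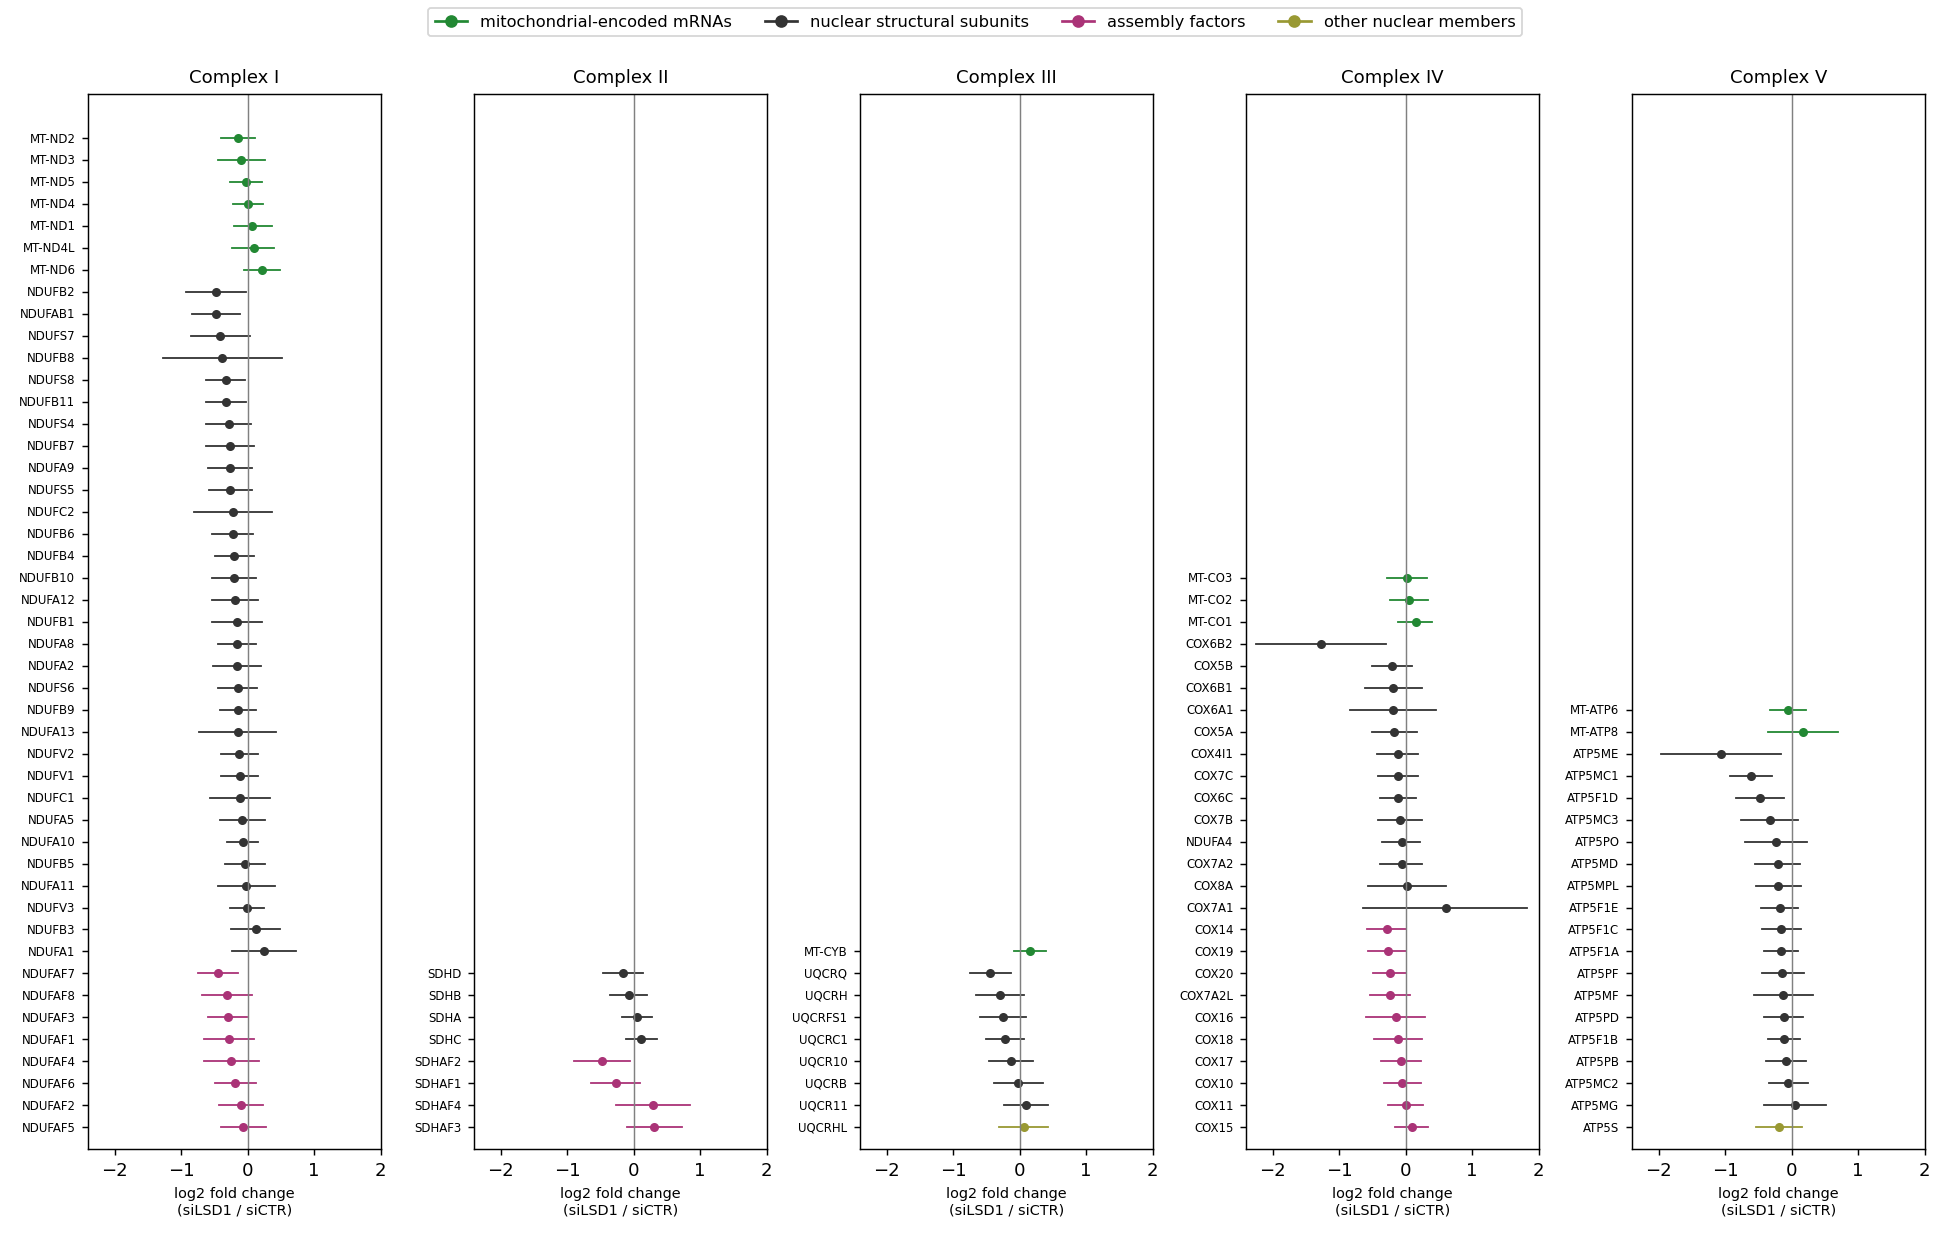
Log2 fold change of the tested members other than 1 complex I subunit (siLSD1 over siCTR, points) with its 95% confidence interval (lines), by complex, with colours for mitochondrial-encoded mRNAs, nuclear structural subunits, assembly factors and other nuclear members. The intervals of nearly all members include 0, and most nuclear points lie left of it.

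Mitochondrial mRNAs took more reads than the nuclear members together. All 13 MT- rows were mRNAs. Their share of the counted reads was 3.56, 4.04 and 3.57% among controls and 3.66, 4.18 and 3.69% after knockdown. The mean was 3.72% ± 0.275 (SD, n = 3) in siCTR and 3.85% ± 0.292 (SD, n = 3) in siLSD1, and the groups overlapped. Replicate 2 was the highest library of both groups, and the difference of 0.123 percentage points was 0.282 without siCTR replicate 2 and -0.0452 without siLSD1 replicate 2. The 105 nuclear members took 0.945, 1.19 and 0.935% of reads in siCTR and 0.963, 0.916 and 0.895% in siLSD1. Here siCTR replicate 2 alone lay above the rest, and the other 5 libraries were between 0.895 and 0.963%. A share of counted reads is relative, so a change in these mRNAs and an opposite change in the rest of the RNA cannot be told apart.

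**Figure D3:**
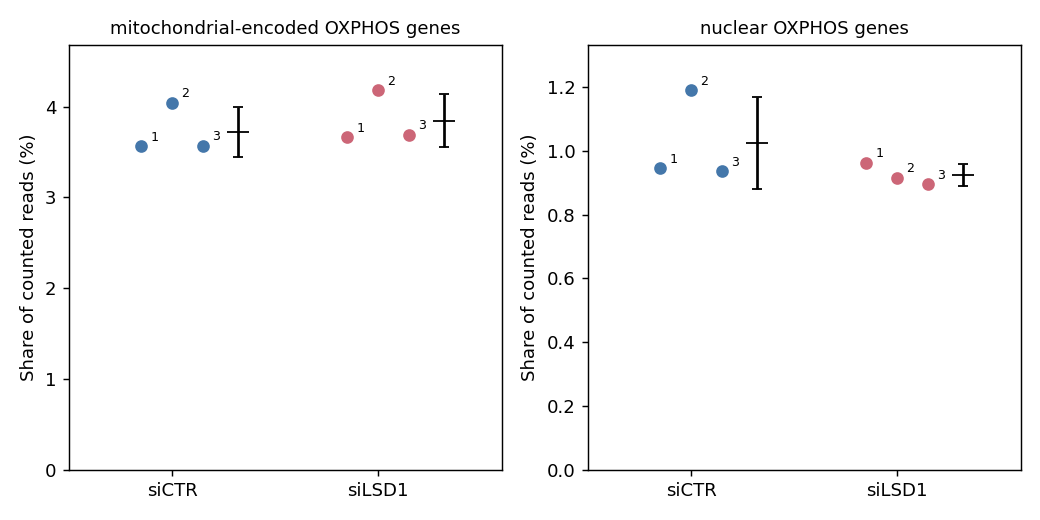
Share of counted reads (%, vertical axis) on the 13 mitochondrial-encoded and the 105 nuclear OXPHOS rows in each library, with the replicate number beside each point and the mean ± SD of 3 libraries in black. The groups overlap in both panels, and siCTR replicate 2 is the highest library for the nuclear rows at 1.19%.

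Per length, in the deposited FPKM values, the order of the mitochondrial mRNAs was led by the 3 cytochrome c oxidase subunits. MT-CO2 had 8434.9 ± 1017 FPKM in siCTR and 8741.6 ± 1137.7 in siLSD1 (SD, n = 3 each), the highest mean level of all genes in the table. MT-CO1, the catalytic subunit, followed with 6481.3 ± 457.2 and 7178 ± 718.9 FPKM, and MT-CO3 with 5300.9 ± 905 and 5401 ± 588 FPKM. The libraries of MT-CO2 (7572.4 to 10024.6 FPKM) and MT-CO1 (5968.1 to 7725.3 FPKM) overlapped, as did those of MT-CO1 and MT-CO3 (4378.5 to 6187.5 FPKM), so the ranges of these neighbours do not separate them, although within each of the 6 libraries MT-CO2 lay above MT-CO1 and MT-CO1 above MT-CO3. MT-ATP6, of the ATP synthase proton channel, had a mean of 3615.1 FPKM over the 6 libraries. The complex I subunits ranged from MT-ND4 at 3198.2 to MT-ND6 at 501.4 FPKM, and MT-CYB of complex III had 1525.9 FPKM. MT-ND6 is the only mRNA of the set encoded on the light strand, and whether the counting used strand is not given in the sources used here.

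**Figure D4:**
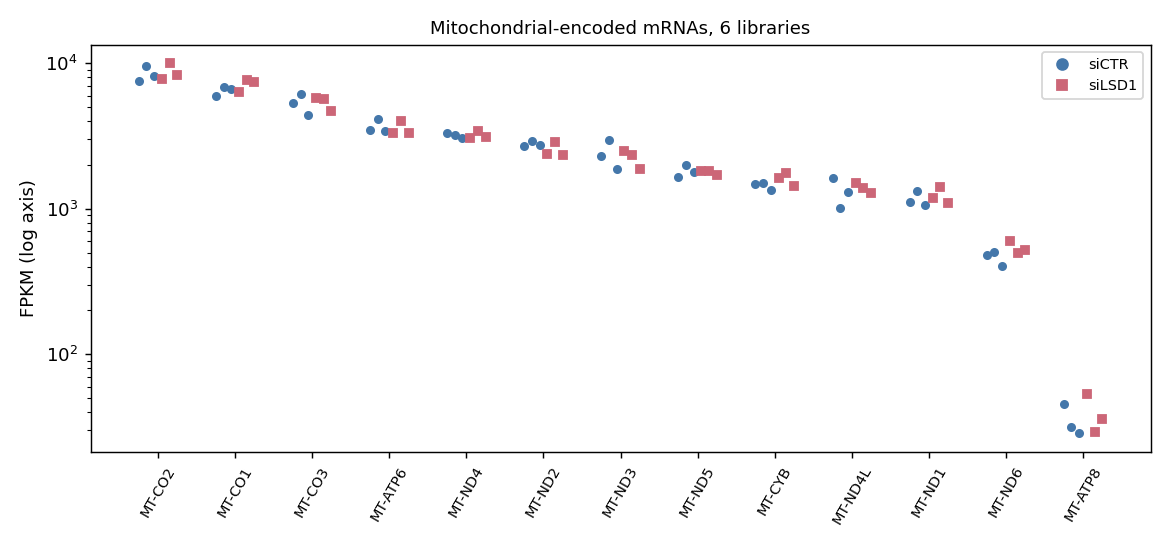
FPKM of the 13 mitochondrial-encoded mRNAs (log axis) in each library, with circles for siCTR and squares for siLSD1, ordered by mean level. MT-CO2 is highest (7572.4 to 10024.6 FPKM), MT-ATP8 lies far below the others (28.7 to 53.4 FPKM), and the groups overlap for most genes.

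No mitochondrial mRNA passed the test. MT-CO1 had 9111, 10706.2 and 10221.6 CPM in siCTR and 9719.9, 11961.1 and 11541.8 CPM in siLSD1. The groups overlapped, and the log2 fold change was 0.15 ± 0.12 (SE), with a 95% interval of -0.11 to 0.40 and an adjusted p of 0.606. MT-ND6 had the largest estimate of the 13. It had 250.5, 268.1 and 211.3 CPM in siCTR and 313.8, 260.9 and 275.6 CPM in siLSD1, and its log2 fold change of 0.22 had an interval of -0.05 to 0.49 and an adjusted p of 0.447. MT-ND2 had the lowest estimate, -0.14, with an interval of -0.40 to 0.11. The widest interval among the mRNAs other than MT-ATP8 was that of MT-ND3, from -0.45 to 0.26. A p above the threshold does not show that the levels were equal, and these intervals give the changes that the data leave possible.

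MT-ATP8, a small ATP synthase subunit, had only 76 to 147 reads per library, although MT-ATP6 is encoded on the same transcript. In GENCODE release 44 the 2 genes share 46 bases, the last of the 207 bases of MT-ATP8 and the first of MT-ATP6. The shared stretch, at chrM:8527-8572 (+, GRCh38), shown because a read lying in it belongs to both genes, is as follows, with no capitals.
MT-ATP8 and MT-ATP6 overlap: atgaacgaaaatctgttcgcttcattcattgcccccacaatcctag
In the deposited second counting of the same libraries, MT-ATP8 had 4.01 times as many reads as in the main table, against a median ratio of 1.11 for genes with a mean of at least 50 reads. Its level is therefore uncertain. MT-ND4L and MT-ND4 share 7 bases, and their ratios between the countings were 1.13 and 1.29. How the counter treated reads in 2 genes is not given in the sources used here.

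Within complex I, 32 of 34 nuclear structural subunits were tested, 3 with an estimate above 0 and 29 below, with a median of -0.16, which was -0.0318 without siCTR replicate 2. NDUFB2, an accessory subunit of the membrane arm, had 51.3, 78.9 and 49 CPM in siCTR and 48.9, 49.4 and 30.4 CPM in siLSD1. The groups overlapped, and siLSD1 replicate 3 was the lowest library. Its log2 fold change was -0.48 ± 0.21 (SE), with an adjusted p of 0.318, and -0.22 without siCTR replicate 2. NDUFAB1, the mitochondrial acyl carrier protein, had 76.9, 117.8 and 85.4 CPM in siCTR and 73.4, 72.7 and 56 CPM in siLSD1. These groups did not overlap, and the log2 fold change was -0.47 ± 0.16 (SE), with an adjusted p of 0.21, and -0.27 without siCTR replicate 2.

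In the other direction, NDUFA1, an accessory subunit, had 20.4 to 29.3 CPM in siCTR and 43.8, 26 and 23.4 CPM in siLSD1, so its estimate of 0.24 rested on siLSD1 replicate 1 and was -0.09 without it. All 8 complex I assembly factors had estimates below 0, with a median of -0.266, and 6 did without siCTR replicate 2, with a median of -0.0885. NDUFAF7, an arginine methyltransferase, had 28.2, 33.4 and 30 CPM in siCTR and 20.8, 21.2 and 25.3 CPM in siLSD1. The groups did not overlap, and the log2 fold change was -0.44 ± 0.14 (SE), with an adjusted p of 0.151. Its adjusted p was 0.0169 when corrected for GC content and length, and without siCTR replicate 2 the estimate was -0.37 with an adjusted p of 0.287. Over these alternatives and the others without a replicate block its adjusted p ran from 0.0169 to 0.521. NDUFAF8 had an estimate of -0.31, or -0.16 without siCTR replicate 2, and an adjusted p of 0.445.

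Complex II has no mitochondrial-encoded subunit, and the estimates of its 4 subunits lay between -0.16 and 0.11. SDHA, the flavoprotein that oxidizes succinate, had 412.5, 425.4 and 409.4 CPM in siCTR and 430.2, 402.7 and 454.5 CPM in siLSD1, with a log2 fold change of 0.05 (95% interval -0.18 to 0.27). SDHC, a membrane anchor, was at 0.11 (-0.12 to 0.35). SDHB, the iron-sulfur subunit, was at -0.07 (-0.35 to 0.20). SDHD, the other anchor, was at -0.16 and at 0.02 without siCTR replicate 2, the library in which it was highest (87.3 CPM against 61.9 to 65.2 in the rest). The assembly factors of complex II, which are counted at low levels, were at -0.48 for SDHAF2, -0.27 for SDHAF1, 0.29 for SDHAF4 and 0.31 for SDHAF3, with adjusted p-values between 0.294 and 0.638. Without siCTR replicate 2, all 4 subunits had estimates above 0, with a median of 0.0741, and the factors were at -0.34, -0.13, 0.50 and 0.52 in the same order.

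In complex III, 7 of 8 nuclear subunits were tested, 1 above 0 and 6 below, with a median of -0.219, which was -0.0483 without siCTR replicate 2. UQCRQ, a small accessory subunit, had 72.2, 81.9 and 61.6 CPM in siCTR and 48.8, 48.9 and 61.7 CPM in siLSD1. The groups touched, since siLSD1 replicate 3 lay just above siCTR replicate 3. Its log2 fold change was -0.44 ± 0.14 (SE), with an adjusted p of 0.176. That value was 0.0423 with the GC and length correction and 0.366 without siCTR replicate 2, in a range of 0.0423 to 0.574 over the alternatives without a replicate block. UQCR11 had the only estimate above 0, 0.10, with an interval of -0.23 to 0.42, and was at 0.22 without that library. UQCRH, the hinge protein, was at -0.30 with an adjusted p of 0.453, and UQCRHL, its near-identical retrocopy, was at 0.06. They were at -0.11 and 0.24 without siCTR replicate 2. UQCRHL was counted at 94.1 to 155.4 CPM beside 77.4 to 141.6 CPM for UQCRH, so reads of the copies cannot be told apart with certainty and both values are uncertain.

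In complex IV, 13 of 16 nuclear structural subunits were tested, 2 above 0 and 11 below, with a median of -0.112. Leaving out siCTR replicate 2 put 10 of 14 above 0, with a median of 0.0575. The tissue-restricted isoforms had few reads. COX4I1, which is found in most tissues, had 249.9 to 356.4 CPM in siCTR and 244.8 to 290.2 CPM in siLSD1, with a log2 fold change of -0.12, and COX4I2 was not analysed here. COX7A2 had 64.2 to 89.5 CPM over the 6 libraries and a log2 fold change of -0.06, while COX7A1, the muscle and heart form, had 12, 6 and 9 reads among controls and 20, 18 and 3 after knockdown. The groups overlapped, and the log2 fold change of COX7A1, 0.60 ± 0.57 (SE), was the highest estimate of all members tested, with an adjusted p of 0.668 on few reads, and was 0.39 without siCTR replicate 2. COX6B1 had 67 to 133.1 CPM and a log2 fold change of -0.19. COX6B2, which is best known in testis, had 17, 10 and 12 reads among controls and 6, 5 and 5 after knockdown. The groups did not overlap, and its log2 fold change of -1.27 ± 0.45 (SE) had an adjusted p of 0.22 on few reads. COX6A1, the widely expressed form, was counted at only 41 to 105 reads and the muscle form COX6A2 at 0 to 4. NDUFA4, a subunit of complex IV in spite of its name, had a log2 fold change of -0.06, and NDUFA4L2, its hypoxia-induced relative, had 5 to 12 reads. COX5B was at -0.21 (95% interval -0.51 to 0.10) and COX8A at 0.02 (-0.56 to 0.60). Without siCTR replicate 2, the estimates were 0.05 for COX4I1, 0.09 for COX7A2, 0.04 for COX6B1, 0.06 for NDUFA4, -0.05 for COX5B and 0.17 for COX8A. Of 10 complex IV assembly factors 9 were below 0, with a median of -0.136 (-0.0588 without siCTR replicate 2), and COX15, of haem A synthesis, had the highest estimate among those above 10 CPM on average, 0.09 (-0.16 to 0.34).

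Complex V held the member with the lowest p. ATP synthase subunit c forms the rotating ring of the proton channel, and ATP5MC1, ATP5MC2 and ATP5MC3 encode the same mature protein with different import sequences. ATP5MC1 had 109.5, 150.5 and 112.5 CPM in siCTR and 93.7, 77.8 and 72.7 CPM in siLSD1. The groups did not overlap, and siCTR replicate 2 was again the highest library. Its log2 fold change was -0.61 ± 0.15 (SE), with an adjusted p of 0.0636, which does not pass the threshold. It was 0.00871 with the GC and length correction, and without siCTR replicate 2 the estimate was -0.45 with an adjusted p of 0.156. Over the alternatives without a replicate block its adjusted p ran from 0.00757 with DESeq2 to 0.271 without siLSD1 replicate 2.

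The other subunit c genes differed in their estimates. ATP5MC2 had 179.7, 232.1 and 166.6 CPM in siCTR and 198, 191.1 and 169.2 CPM in siLSD1. The groups overlapped, and the log2 fold change was -0.05, with an interval of -0.34 to 0.24. ATP5MC3 had 134, 158.4 and 94.5 CPM in siCTR and 127.3, 105 and 75.2 CPM in siLSD1, with a log2 fold change of -0.33 and an interval of -0.76 to 0.10. These estimates were 0.11 for ATP5MC2 and -0.16 for ATP5MC3 without siCTR replicate 2. A difference between the 3 genes was not tested.

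**Figure D5:**
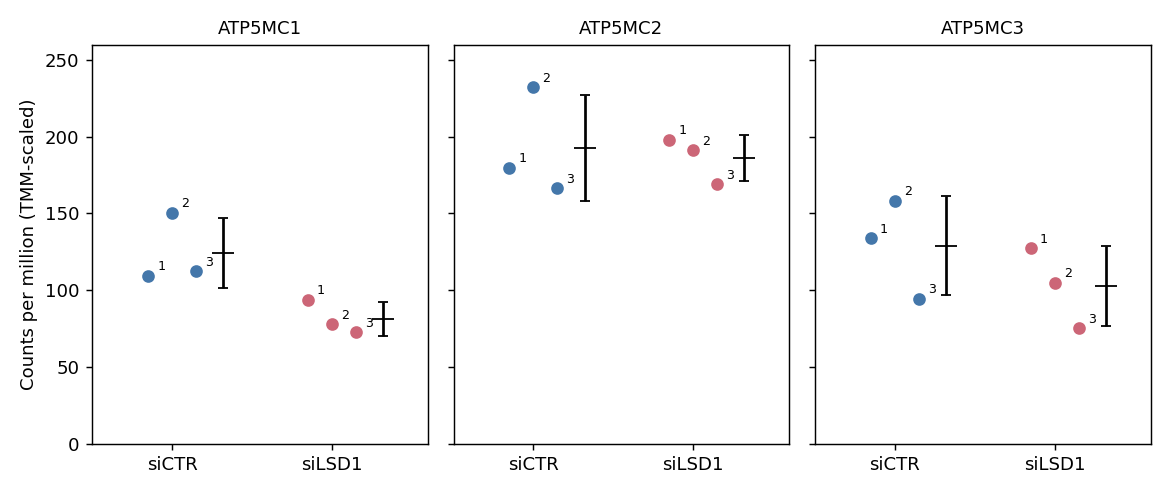
CPM (TMM-scaled) of the 3 subunit c genes in each library, with the replicate number beside each point and the mean ± SD of 3 libraries in black. Only for ATP5MC1 do all siLSD1 libraries (72.7 to 93.7 CPM) lie below all siCTR libraries (109.5 to 150.5 CPM).

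The promoters of ATP5MC1, ATP5MC2 and UQCRQ are shown because ATP5MC1 and ATP5MC2 make the same mature protein but had the most different estimates, and UQCRQ had the lowest p in complex III. They run from 250 bases before to 50 after the start of the gene in RefSeq (GRCh38.p14), on the coding strand, at chr17:48892537-48892836 (+), chr12:53676034-53676333 (-) and chr5:132866392-132866691 (+). Capitals mark matches on either strand to the core letters of 3 factors known to bind promoters of respiratory genes, NRF1 (GCGCATGC), the ETS factor GABP (CCGGAAG) and YY1 (AAGATGGC). ATP5MC3 had no entry.
ATP5MC1: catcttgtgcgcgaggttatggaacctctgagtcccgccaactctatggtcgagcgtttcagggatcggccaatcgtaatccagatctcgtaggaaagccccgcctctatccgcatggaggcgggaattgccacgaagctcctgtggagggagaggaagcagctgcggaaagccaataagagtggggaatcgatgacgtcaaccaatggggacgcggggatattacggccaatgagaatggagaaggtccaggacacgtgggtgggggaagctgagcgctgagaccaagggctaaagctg
ATP5MC2: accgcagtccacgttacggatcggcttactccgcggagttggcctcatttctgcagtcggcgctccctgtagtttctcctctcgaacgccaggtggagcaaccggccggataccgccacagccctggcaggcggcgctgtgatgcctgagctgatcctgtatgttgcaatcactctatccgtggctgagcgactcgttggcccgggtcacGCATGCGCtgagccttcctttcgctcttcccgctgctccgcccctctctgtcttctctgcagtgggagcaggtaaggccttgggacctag
UQCRQ: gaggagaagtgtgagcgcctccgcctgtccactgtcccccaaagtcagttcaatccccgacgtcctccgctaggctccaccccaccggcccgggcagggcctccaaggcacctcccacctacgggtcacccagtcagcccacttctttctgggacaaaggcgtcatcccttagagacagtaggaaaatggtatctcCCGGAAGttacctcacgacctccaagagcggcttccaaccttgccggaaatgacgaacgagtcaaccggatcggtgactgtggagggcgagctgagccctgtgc
The ATP5MC1 window held none of the 3 words, that of ATP5MC2 held the NRF1 word from position -40, on the opposite strand, and that of UQCRQ held the ETS word from position -54. Promoters were found for 85 of 105 nuclear members. Of these, 17 (20%) held the NRF1 word against 3.05% of all 35116 RefSeq promoters, 24 (28.2%) the ETS word against 10.3%, and 11 (12.9%) the YY1 word against 2.89%. The background was not limited to genes counted or tested here, and promoters of other widely expressed genes were not compared. The higher shares are therefore not shown to be particular to OXPHOS genes. A match is a description of letters and not evidence of binding, and these files hold no binding data.

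Counting the subunit c genes, all 17 nuclear structural subunits of ATP synthase were tested, 1 above 0 and 16 below, with a median of -0.161, and without siCTR replicate 2, 6 were above 0, with a median of -0.0301. ATP5F1D, the delta subunit of the catalytic head's stalk, had 135.6, 186.9 and 121.4 CPM in siCTR and 117.8, 114.2 and 87 CPM in siLSD1. The groups did not overlap, and its log2 fold change of -0.48 ± 0.16 (SE) had an adjusted p of 0.206. It was -0.27 without siCTR replicate 2. ATP5F1B, the catalytic beta subunit and the most abundant nuclear member at 700.8 FPKM on average, was at -0.11 (95% interval -0.35 to 0.13), or -0.03 without that library. ATP5ME, of the membrane part, had 35, 27 and 13 reads among controls and 16, 10 and 10 after knockdown, and its estimate of -1.06 ± 0.42 (SE) with an adjusted p of 0.268 rested on these few reads. ATP5MG had the only estimate above 0, 0.05, which was 0.33 without siCTR replicate 2.

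Some structural subunits and the ATP synthase inhibitor were nearly uncounted. NDUFA3 had 0 to 3 reads per library, NDUFA7 0 to 2, UQCRC2, a core subunit of complex III, 3 to 13, and ATP5IF1, the ATP synthase inhibitor, 0 to 1. These 4, with COX6A2, COX7B2, NDUFA4L2 and the retrocopy ATP5MGL, are the 8 members that failed the filter and were not tested. NDUFB8 passed with 8 to 17 reads. In GENCODE release 44, 48.5% of the exon bases of NDUFB8, 61.3% of those of ATP5ME and 32.5% of those of NDUFA7 lie in exons of other genes. The share was 6.06% for NDUFA3, 3.55% for ATP5IF1 and 0% for UQCRC2. The part of such overlap in the low counts was not tested. These levels are therefore no measure of the expression of those genes.

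Other mitochondrial gene lists were read beside these. None of their genes passed an adjusted p under 0.05. Their counts at an unadjusted p under 0.05 are to be read against 6.55% lower and 7.48% higher of all genes tested. Mitochondrial ribosomal proteins were taken by symbol only, as genes whose symbol starts with MRPL or MRPS. Their median log2 fold change was -0.177 over 74 tested genes, with 69 below 0 and 10 lower at an unadjusted p under 0.05. MRPS36, in this list by its symbol and not by a known place in the ribosome, had an estimate of -0.62 ± 0.17 (SE). Its adjusted p was 0.116, and the estimate was -0.47 without siCTR replicate 2. Electron carriers and assembly factors outside the rule had a median of -0.121 over 56 genes, with 9 lower at that threshold, led by TMEM70, an ATP synthase assembly factor, at -0.50 ± 0.14 (SE) and an adjusted p of 0.111. The adjusted p of TMEM70 was 0.0187 with the GC and length correction and 0.225 without siCTR replicate 2, where its estimate was -0.35. Genes of mitochondrial DNA replication, transcription and RNA processing had a median of -0.14 over 43 genes with 4 lower, among them TFAM, which packages mitochondrial DNA, at -0.27 with an adjusted p of 0.325. The TCA cycle and pyruvate dehydrogenase had a median of -0.104 over 19 genes, with 3 lower and 1 higher. The nuclear regulators of respiratory genes had a median of -0.0111 over 21 genes, with 0 lower and 1 higher, GABPB2, at 0.31. Without siCTR replicate 2 the medians were -0.0467 for the ribosomal proteins (49 below 0, 3 lower at that threshold), 0.00523 for the carriers and assembly factors (27 below 0, 5 lower and 3 higher), -0.0734 for DNA and RNA processing (1 lower), -0.0112 for the TCA cycle (3 lower, 1 higher) and -0.0801 for the regulators (1 lower, 1 higher), against 5.69% lower and 7.0% higher of all genes tested.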

How the data were processed

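RNA-seq libraries of U2OS cells, 3 siCTR and 3 siLSD1, were grouped by their labels. The authors aligned reads with STAR and deposited raw read counts per gene, a normalized signal (counts divided by a size factor) that was not used here, and FPKM values, which were used for levels between genes. The authors' deposited log2 fold changes and p-values, from their own comparisons, were not used. The build, annotation and counter are not given in the sources used here. The authors' deposited tables for pairs of libraries, each a siCTR and a siLSD1 library of the same number, hold a second counting.

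Counts were tested in R 4.3.3 with edgeR 4.0.16 (TMM, quasi-likelihood test, low counts removed by filterByExpr at min.count 10), with Benjamini-Hochberg adjustment over 11844 genes, tested also on simulated data. The simulated counts held no outlying library and no shift with gene length. They therefore do not bear on the pattern of siCTR replicate 2. Other alternatives were DESeq2 1.42.0, limma-voom (limma 3.58.1), other scalings and filters, the second counting, a GC and length correction from GENCODE release 44, a block for the replicate number and leaving out each library. The biological coefficient of variation was 12.6%, and library pairs differed beyond sampling noise (chi-square per degree of freedom 6.45 to 39.3). Named genes were KDM1A, every MT- row, per class up to 2 members above 0 and up to 2 below 0 that lay farthest from 0 in log2 fold change, among tested members above 10 CPM on average, isoform sets, and members under the filter. The results of a few single genes are not reported here. The members and gene lists were chosen with earlier results of these data known. NDUFS8 and others named for an unadjusted p were chosen after their values were seen.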

Additional observations from a re-analysis of the deposited data

How the results depend on the processing

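The count of 0 members called at an adjusted p under 0.05 was 1 lower with no filter, 1 lower with DESeq2 and 3 lower with the GC and length correction (ATP5MC1 each time, with NDUFAF7 and UQCRQ in the last), against 0.654, 0.954 and 2.91% of all genes tested, and 0 to 1 with 1 library left out (ATP5MC1 without siCTR replicate 1). At an unadjusted p under 0.05, the 12 lower members became 4 to 17 with 1 library left out. The 4 (3.6%, against 5.69% of all genes) came without siCTR replicate 2. The 17 (15.3%) came without siCTR replicate 3, against 6.05%, and without siLSD1 replicate 1, against 7.43%. The 0 higher members became 4 with the GC and length correction (3.64%, against 12.4% of all genes). With 1 library left out they became 0 to 3, the most without siCTR replicate 2 (2.7%, against 7.0%). The other lists had 26 lower and 2 higher of 213 genes at that threshold (12.2 and 0.939%, against 6.55 and 7.48% of all genes), 46 and 4 with the correction (21.6 and 1.88%, against 11.9 and 12.4%), and 9 to 32 and 1 to 5 with 1 library left out. At an adjusted p under 0.05 the other lists had 1 lower with DESeq2 (0.469%, against 0.954% of all genes). With the correction they had 3 lower and 1 higher (1.41 and 0.469%, against 2.91 and 4.48%). The fewest lower genes of the other lists came without siLSD1 replicate 2 (4.23%, against 3.79% of all genes). The most, 32, came without siCTR replicate 1 (15%, against 6.58%). Without siCTR replicate 2 there were 13 lower (6.1%, against 5.69%) and 5 higher, the most in that direction (2.35%, against 7.0%). The median of the assembly factors ran from -0.276 to -0.0768, that of the nuclear structural subunits from -0.24 to -0.0117 and that of the mitochondrial mRNAs from -0.0301 to 0.11 with 1 library left out. The difference in the mitochondrial share (siLSD1 minus siCTR, percentage points) was 0.123 and ran from -0.0452 without siLSD1 replicate 2 to 0.282 without siCTR replicate 2. The share without rRNA and tRNA rows is this same share, since all MT- rows are mRNAs.

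The replicate numbers were not used to pair libraries. The deviations of same-numbered libraries correlated at 0.328, 0.0744 and 0.31, so replicate 2 was below 0.1, although each library correlated best with its own number. The authors also deposited comparisons of each siCTR library with the siLSD1 library of the same number. The labels do not say whether libraries of one number were made together, so a pairing is possible and not settled. With a replicate block, 7 members (6.36%, against 3.44% of all genes tested) were lower at an adjusted p under 0.05, with values of 0.000193 for ATP5MC1, 0.00394 for ATP5F1D, 0.00712 for NDUFB2, 0.00723 for NDUFAB1, 0.0131 for NDUFS7, 0.0156 for UQCRQ and 0.0211 for NDUFAF7. At an unadjusted p 22 were lower (against 11.2% of all genes), and the other lists had 11 lower and 1 higher, and 48 lower unadjusted (22.5%). With the block and the GC and length correction together, 8 members were lower and 1 higher (MT-ND6) at an adjusted p under 0.05. These were 7.27 and 0.909%, against 4.89 and 6.16% of all genes. Unadjusted, 23 were lower and 6 higher (20.9 and 5.45%, against 14.0 and 14.1%). The other lists had 14 lower and 1 higher (6.57 and 0.469%), and 53 and 4 unadjusted (24.9 and 1.88%), against the same shares of all genes. Over all genes the block took the calls from 44 lower and 127 higher to 408 and 489. The cause was not tested.

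Among single genes, 604 of 670 values under alternatives kept direction and side of the threshold, 19 passed it only under the alternative and 47 changed sign. With the GC and length correction, without and with the replicate block, log2 fold changes turned to 0.05 and 0.04 for MT-ATP6, 0.08 and 0.06 for MT-ND3, 0.02 and 0.02 for MT-ND5, 0.02 and 0.02 for SDHB, 0.04 and 0.04 for COX7A2 and 0.02 and 0.01 for NDUFA4. COX8A turned to -0.03 with the replicate block, -0.02 with the second counting and -0.04 with limma-voom. With 1 library left out, estimates that changed sign ran from -0.15 to 0.11 for ATP5MC2, -0.1 to 0.33 for ATP5MG, -0.22 to 0.05 for COX4I1, -0.61 to 0.09 for COX6A1, -0.39 to 0.04 for COX6B1, -0.17 to 0.09 for COX7A2, -0.42 to 0.22 for COX8A, -0.15 to 0.04 for MT-ATP6, -0.1 to 0.38 for MT-ATP8, -0.06 to 0.16 for MT-CO2, -0.1 to 0.16 for MT-CO3, -0.03 to 0.18 for MT-ND1, -0.25 to 0.1 for MT-ND3, -0.05 to 0.04 for MT-ND4, -0.06 to 0.25 for MT-ND4L, -0.1 to 0.06 for MT-ND5, -0.09 to 0.41 for NDUFA1, -0.15 to 0.06 for NDUFA4, -0.16 to 0.08 for SDHB, -0.25 to 0.02 for SDHD and -0.00 to 0.22 for UQCR11. With all libraries these estimates lay between -0.19 and 0.24, and none passed the threshold.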
